A study of Homo sapiens with 12 samples.

Results

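The transcripts of the proteasome were followed across WT and ATG7 KO lens epithelial cells with and without oxidative stress. The members are all protein-coding genes whose symbol starts with PSM, continues with a letter from A to G and ends with a number, without PSMC3IP, which shares the prefix but is a recombination factor. This rule found 48 of the 58735 genes in the count table. By role they were 8 alpha subunits, 7 constitutive beta subunits and 4 inducible or tissue-specific catalytic subunits of the 20S core, 6 ATPases and 11 non-ATPase subunits of the 19S cap, 3 assembly chaperones of the 19S base, 4 activators, 1 inhibitor and 4 assembly chaperones of the 20S core. A total of 46 members passed the filter on low counts. PSMA8, the testis form of an alpha subunit, had 0 reads in all 12 libraries, and PSMB11, the catalytic subunit of the thymus, had at most 3 reads in a library and 10 in all.

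The 26S proteasome is the protease that destroys proteins tagged with ubiquitin. Its 20S core is a barrel of stacked alpha and beta rings, with the proteolytic sites of PSMB5, PSMB6 and PSMB7 facing the inner chamber, and its 19S cap binds ubiquitin chains, removes them, unfolds the substrate by means of its ATPase ring and feeds it into the core. In cells stimulated by interferon, PSMB8, PSMB9 and PSMB10 are built into new cores in place of PSMB5, PSMB6 and PSMB7 and form the immunoproteasome, and the PA28 activator encoded by PSME1 and PSME2 is induced with them. Proteasome and autophagy are the main routes of protein breakdown in a cell, and damaged lens proteins are a hallmark of cataract.

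The cells were HLE-B3, an established line derived from human lens epithelium, and total RNA was sequenced in 12 libraries, 3 biological replicates of each of 4 groups. The groups were untreated wild type (WT) cells labelled 0 h, WT cells given 200 μM H2O2 for 12 h, untreated Atg7KO cells (ATG7 KO) labelled 0 h, and ATG7 KO cells given 200 μM H2O2 for 12 h. ATG7 is an enzyme needed to form autophagosomes. Its knockout was made in HLE-B3 by CRISPR/Cas9 with puromycin selection and checked by western blot, and the labels do not say which clone or clones were sequenced, so a difference between the genotypes cannot be told apart from a difference between clones. Because no group is labelled as kept without H2O2 for 12 h, the effect of H2O2 and that of the time in culture cannot be told apart here. In RNA from whole cultures, fewer cells of a type and less RNA per cell cannot be told apart either.

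Library totals ran from 15602183 to 17659496 reads on genes. Untreated ATG7 KO replicate 1 stood apart from the others: its mean Pearson r with the other replicates of its group, on log counts, was 0.983, against 0.990 to 0.997 for the other 11 libraries. The members took 0.887% of its reads, against 0.640% and 0.648% in the other untreated ATG7 KO libraries. Of its 46 tested members, 43 lay above the mean of replicates 2 and 3, by a median of 0.65 on the log2 scale, while the median over 16856 genes was -0.01. Short genes were high in this library (median of all genes under 2000 bases of exon 0.22, of genes of 5000 bases or more -0.21), and the members were above both (0.87 and 0.43). The log2 fold changes that use untreated ATG7 KO cells are therefore given with and without this library. ATG7 reads were not lower in the libraries labelled ATG7 KO (3.42 to 3.78 FPKM untreated and 2.11 to 2.35 FPKM with H2O2) than in WT (2.21 to 2.81 and 1.91 to 1.99 FPKM). Small deletions made by Cas9 need not lower the reads on a gene, so this does not check the labels. Of 11 lens epithelium markers, 6 had a mean above 1 FPKM in a group, led by VIM, CDH2 and GJA1, while the defining lens genes FOXE3, CRYAA and PROX1 were near 0. All 10 markers of the retinal pigment epithelium, cornea and leukocytes stayed below 1 FPKM in all groups, but 3 of 4 fibroblast markers rose above it. COL1A1 had means of 243 to 626 FPKM. LUM was at 0.168 and 0.129 FPKM in untreated and H2O2-treated WT but at 9.52 and 3.93 FPKM in ATG7 KO, and DCN was near 0. The part of this LUM difference in the comparisons of genotypes was not tested.

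Throughout, levels are the authors' FPKM (fragments per kilobase of exon, scaled to a common library size), 3 libraries a group. Changes are log2 fold changes ± SE from edgeR's quasi-likelihood test on the counts, and a member is called higher or lower at a Benjamini-Hochberg adjusted p under 0.01 over all genes tested. "Without replicate 1" means without untreated ATG7 KO replicate 1.

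With H2O2, proteasome transcripts rose broadly in WT cells. Of 46 tested members, 28 rose and 2 fell, while of all 15913 genes tested 30.9% rose and 30.1% fell (61.0% in either direction). The members' median log2 fold change was 0.24, against -0.01 over all genes, and the changes were small, from -0.19 to 0.96. After a correction for gene length 27 rose and 4 fell (59.7% of all genes called), with a median of 0.23. In ATG7 KO cells the same treatment left the members split. Without replicate 1, 17 rose and 10 fell, with a median of 0.04, where 29.8% of all genes rose and 28.6% fell (58.4% in either direction). With all 3 untreated libraries only PSME4 rose and PSMG4 fell, with a median of -0.21 (26.0% of all genes called, 13.6% higher and 12.4% lower). The difference between the 2 responses, tested as an interaction in which a negative value means a lower response in ATG7 KO, was called for 3 members, all negative (PSMB10, PSMG4 and PSMD2), where 7.02% of all genes were called higher and 7.01% lower. Without replicate 1 it was called negative for 16 members and positive for 2 (34.1% of all genes, 17.8% higher and 16.3% lower). The members' median of this difference was -0.42 with all 12 libraries, with 42 of 46 below 0, against -0.03 over all genes. Without replicate 1 the median was -0.13, with 35 below 0, against -0.01 over all genes.

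Between the genotypes, the calls of members went in both directions. With H2O2, 11 members were higher and 15 lower in ATG7 KO than in WT, a share near that of all genes (55.6% called, 27.7% higher and 27.9% lower), with a median of -0.08. In untreated cells 4 were higher and 2 lower (7.7% of all genes called, 4.42% higher and 3.28% lower), and without replicate 1, 14 were higher and 4 lower (36.2% of all genes, 18.2% higher and 17.9% lower). In untreated cells 40 of the 46 members lay above 0, called or not, with a median of 0.29 against 0.01 over all genes. Without replicate 1, 31 did, with a median of 0.06 against -0.005 over all genes. At the thresholds of the study (log2 fold change beyond 1, adjusted p under 0.01, mean FPKM above 1) 3 members passed in untreated ATG7 KO against WT, PSMB9, PSME2 and PSMB5, and 0 passed in the other comparisons of groups. For those 4 comparisons these thresholds called 3.5% of all genes in untreated ATG7 KO against WT, 7.46% with H2O2, 12.5% with H2O2 in WT and 11.2% with H2O2 in ATG7 KO. The calls made with replicate 1 present rest on few libraries, for the members and for all genes. When any 1 of the untreated WT libraries was left out instead, no member passed in untreated ATG7 KO against WT. Calls over all genes dropped too, from 679 higher and 503 lower to 181, 180 and 180 higher and 113, 107 and 108 lower. With all libraries, 13 members there had an unadjusted p under 0.05. When all 12 libraries shared 1 fit, with a biological coefficient of variation of 0.12 against 0.0416 with H2O2 and 0.0470 in WT, the counts were lower: 7 members rose and 0 fell with H2O2 in WT, where 40.5% of all genes were called, and 3 were higher and 5 lower in ATG7 KO with H2O2, where 28.9% were.

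**Figure D1:**
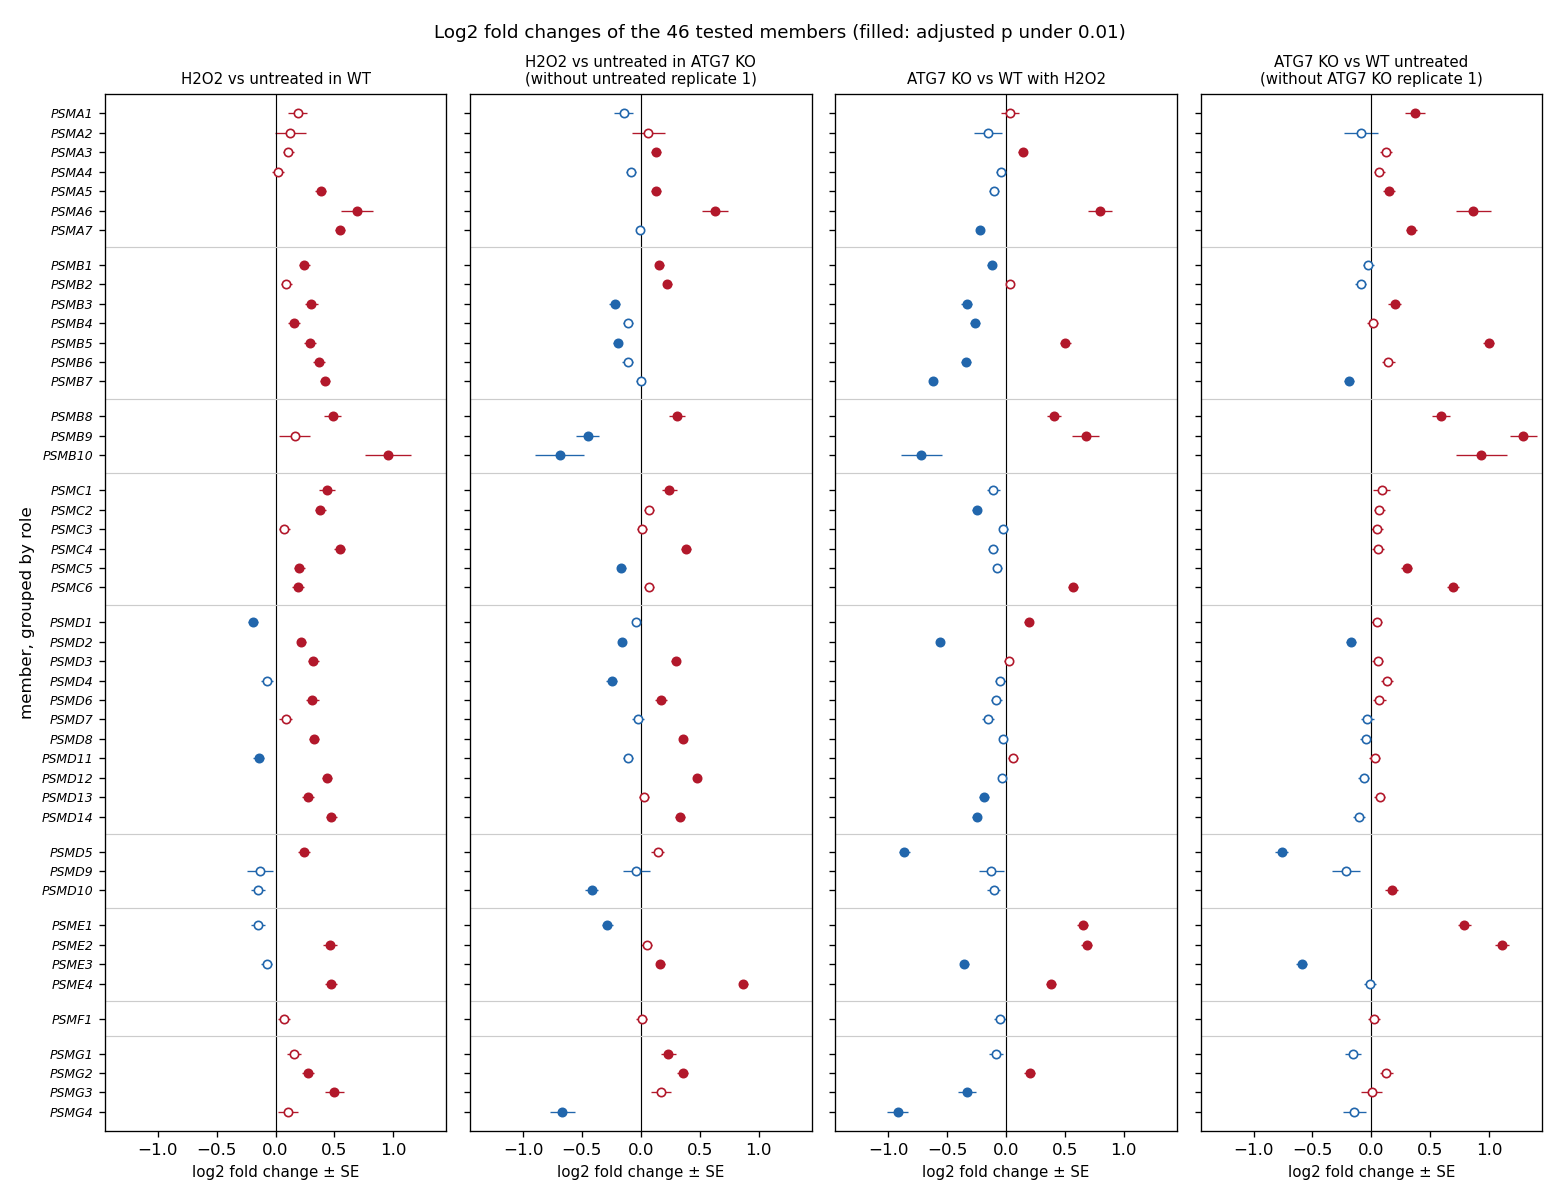
Log2 fold changes (x axis, bars ± SE) of the 46 tested members (y axis, grouped by role) in the comparisons of groups, with filled points for adjusted p under 0.01, red above and blue below 0. With H2O2 in WT (left) 28 points are filled to the right of 0 and 2 to the left, while in ATG7 KO against WT with H2O2 11 and 15 are; the panels on untreated ATG7 KO cells leave out replicate 1.

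The levels were summed by role on the per-length scale, over different numbers of genes. The 7 constitutive beta subunits summed to 517, 500.3 and 529 FPKM in untreated WT, 629, 622 and 653 in H2O2-treated WT, 1005, 559 and 562 in untreated ATG7 KO and 551, 547 and 543 in H2O2-treated ATG7 KO. The 8 alpha subunits summed to 216, 206 and 216 FPKM in untreated WT, 278, 279 and 279 in H2O2-treated WT, 461, 252 and 254 in untreated ATG7 KO and 263, 259 and 257 in H2O2-treated ATG7 KO. In both rings every H2O2-treated WT library was above every untreated WT library, by 0.30 and 0.39 on the log2 scale, and untreated ATG7 KO replicate 1 was the highest of all 12. The 6 ATPases summed to 202, 194 and 199.9 FPKM in untreated WT, 247, 244 and 252 in H2O2-treated WT, 324, 219 and 215 in untreated ATG7 KO and 240.2, 242 and 232 in H2O2-treated ATG7 KO, and the 11 non-ATPase subunits to 545, 527 and 559.9 FPKM in untreated WT, 633, 639 and 622 in H2O2-treated WT, 658, 519 and 518 in untreated ATG7 KO and 543, 552 and 542 in H2O2-treated ATG7 KO. An exact permutation test of 3 libraries against 3 cannot give a two-sided p below 0.1, the value reached by each of these sums in WT. The 3 detected immunoproteasome subunits with PSMB11 summed to only 13.4, 14.8 and 12.7 FPKM in untreated WT, 18.6, 19.4 and 19.7 in H2O2-treated WT, 47.3, 24.7 and 22.9 in untreated ATG7 KO and 24.2, 24.8 and 24.1 in H2O2-treated ATG7 KO.

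Of the alpha ring, the gate of the core, 3 of 7 tested members rose with H2O2 in WT, PSMA5, PSMA6 and PSMA7, and 0 fell (median 0.19, range 0.02 to 0.69). PSMA7 was the most abundant alpha transcript, at 118, 112 and 121 FPKM in untreated WT, 173, 174 and 168 in H2O2-treated WT, 273, 149 and 146 in untreated ATG7 KO and 153, 147 and 144 in H2O2-treated ATG7 KO. Its treated and untreated WT libraries did not overlap, and in WT it rose by 0.55 ± 0.04 (edgeR adjusted p = 1.69e-15). In ATG7 KO its response was -0.01 ± 0.04 without replicate 1 and -0.36 ± 0.24 (edgeR adjusted p = 0.269) with it, neither called. Without replicate 1 it was lower than in WT by an interaction of -0.54 ± 0.06, called there and not with all 12 libraries (-0.90 ± 0.26, edgeR adjusted p = 0.0198). PSMA7 was also lower in ATG7 KO than in WT with H2O2 (-0.22 ± 0.04, edgeR adjusted p = 3.24e-06), a call lost after a correction for gene length (-0.04 ± 0.04).

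PSMA6 and PSMA2 had the lowest FPKM of the tested alpha transcripts, and PSMA6 was at 0.803, 0.927 and 0.995 FPKM in untreated WT, 1.37, 1.597 and 1.47 in H2O2-treated WT, 2.06, 1.56 and 1.74 in untreated ATG7 KO and 2.52, 2.54 and 2.67 in H2O2-treated ATG7 KO (91 to 301 reads a library). All 4 groups were apart, in the order untreated WT, H2O2-treated WT, untreated ATG7 KO and H2O2-treated ATG7 KO, but for untreated ATG7 KO replicate 2, which lay within the range of H2O2-treated WT. PSMA6 rose with H2O2 in WT by 0.69 ± 0.14 (edgeR adjusted p = 2.11e-05), and was higher in ATG7 KO both with H2O2 (0.80 ± 0.11, edgeR adjusted p = 8.56e-08) and untreated (0.97 ± 0.16, edgeR adjusted p = 0.00662; 0.86 ± 0.15 without replicate 1). Its exons share 14.1% of their bases with AL121594.1 on the same strand, and how reads on both genes were assigned is not given in the sources used here. PSMA2 and PSMA1, the next lowest, share 34.6% and 24.7% of their exon bases with other genes on either strand. PSMA3, PSMA4, PSMA5 and PSMA7 share 0%. The part of this sharing in the low FPKM was not tested. Beside PSMA6 and PSMA7, PSMA3 also passed between the genotypes with H2O2 (0.14 ± 0.04, edgeR adjusted p = 0.003299). The role's median there was -0.04 (range -0.22 to 0.80).

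Of the constitutive beta ring, 6 of 7 members rose with H2O2 in WT and PSMB2 did not pass (0.09 ± 0.04, edgeR adjusted p = 0.0632). After the correction for gene length only PSMB2, PSMB6 and PSMB7 were called, at 0.13 ± 0.04, 0.16 ± 0.05 and 0.24 ± 0.04. PSMB1, PSMB3 and PSMB4 were then at 0.09 ± 0.05, 0.09 ± 0.05 and -0.01 ± 0.05. PSMB5, the chymotrypsin-like site, was at 49.97, 51.4 and 53.4 FPKM in untreated WT, 61.5, 61.6 and 66.8 in H2O2-treated WT, 185, 103 and 102 in untreated ATG7 KO and 88.2, 94.8 and 87.8 in H2O2-treated ATG7 KO. Every ATG7 KO library was above every WT library. The rise with H2O2 in WT was 0.29 ± 0.05 (edgeR adjusted p = 2.71e-06), and it was not called after the correction for gene length (0.10 ± 0.05). PSMB5 was higher in untreated ATG7 KO than in untreated WT by 1.33 ± 0.23 (edgeR adjusted p = 0.00872), or by 0.996 ± 0.05 without replicate 1, and with H2O2 the difference was 0.50 ± 0.04 (edgeR adjusted p = 1.77e-11). Its H2O2 response in ATG7 KO was -0.20 ± 0.04 and called without replicate 1, and -0.53 ± 0.23 (edgeR adjusted p = 0.106) and not called with it.

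PSMB6, the caspase-like site, was at 55.1, 61.8 and 60.3 FPKM in untreated WT, 75.9, 76.1 and 77.2 in H2O2-treated WT, 129, 65.5 and 64.5 in untreated ATG7 KO and 58.9, 62.1 and 61.02 in H2O2-treated ATG7 KO. PSMB7, the trypsin-like site, was at 136, 131 and 137 FPKM in untreated WT, 185, 177 and 181 in H2O2-treated WT, 198, 116 and 119 in untreated ATG7 KO and 120.4, 116 and 119 in H2O2-treated ATG7 KO. Both were highest in H2O2-treated WT when replicate 1 is set aside, and in H2O2-treated cells the genotypes did not overlap. With H2O2 in WT, PSMB6 rose by 0.37 ± 0.05 (edgeR adjusted p = 2.84e-08), and PSMB7 by 0.42 ± 0.04 (edgeR adjusted p = 3.13e-12). With H2O2 in ATG7 KO without replicate 1 neither passed (PSMB6 -0.11 ± 0.05, PSMB7 0.00 ± 0.04), nor with it (PSMB6 -0.51 ± 0.26, edgeR adjusted p = 0.1596, PSMB7 -0.29 ± 0.20, edgeR adjusted p = 0.295). Without replicate 1 the differences between the responses were -0.47 ± 0.07 and -0.41 ± 0.06, both called there, against -0.88 ± 0.29 (edgeR adjusted p = 0.0347) and -0.71 ± 0.22 (edgeR adjusted p = 0.0283) with all 12 libraries. In ATG7 KO against WT with H2O2, PSMB6 was lower (-0.34 ± 0.04, edgeR adjusted p = 6.16e-08), and so was PSMB7 (-0.62 ± 0.04, edgeR adjusted p = 8.2e-16). PSMB1, PSMB3 and PSMB4 were lower there too, so that PSMB5 alone of the 6 called beta subunits was higher. The median of the ring was -0.26 (range -0.62 to 0.50). With the length correction PSMB1 (0.04 ± 0.04) and PSMB4 (-0.10 ± 0.04) were not called, PSMB3 (-0.16 ± 0.05) and PSMB6 (-0.16 ± 0.04) were called at values nearer 0. The median was then -0.095.

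**Figure D2:**
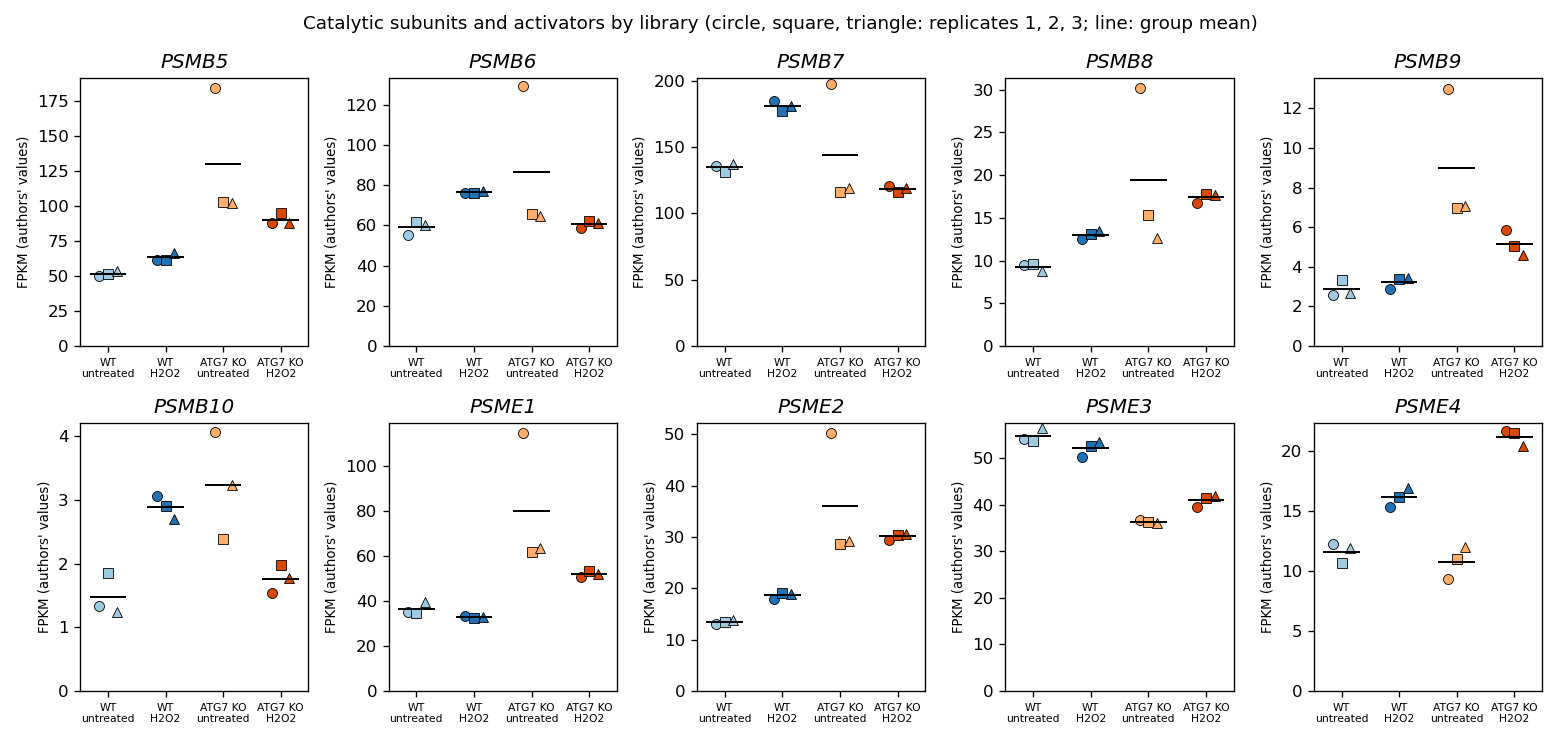
FPKM (y axis, from 0) of the catalytic subunits and the activators in each library (circle, square and triangle for replicates 1, 2 and 3) by group (x axis), with a line at the group mean. Untreated ATG7 KO replicate 1 is the highest point for 8 of the 10 genes, all but PSME3 and PSME4, and the other ATG7 KO libraries are above all WT libraries for PSMB5, PSMB9, PSME1 and PSME2.

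The inducible catalytic subunits had low FPKM in these cells. Their 3 genes all lay above 0 in untreated ATG7 KO against WT, and also with H2O2 in WT, called or not. They parted in ATG7 KO against WT with H2O2, where PSMB10 alone was lower. In the H2O2 response of ATG7 KO without replicate 1, PSMB8 alone rose. PSMB8, which replaces PSMB5, was at 9.48, 9.61 and 8.79 FPKM in untreated WT, 12.6, 13.1 and 13.5 in H2O2-treated WT, 30.2, 15.4 and 12.6 in untreated ATG7 KO and 16.7, 17.8 and 17.7 in H2O2-treated ATG7 KO. The treated libraries of either genotype were apart from untreated WT and from each other, while untreated ATG7 KO replicate 3 lay near H2O2-treated WT. PSMB8 rose with H2O2 in WT by 0.48 ± 0.07 (edgeR adjusted p = 6.62e-08), and was higher in ATG7 KO than in WT with H2O2 by 0.41 ± 0.06 (edgeR adjusted p = 4.15e-07). In untreated cells the difference was 1.06 ± 0.31 (edgeR adjusted p = 0.0525), not called with replicate 1 and called without it (0.59 ± 0.08). The H2O2 response in ATG7 KO turned from -0.15 ± 0.30 (edgeR adjusted p = 0.701) with all libraries to 0.31 ± 0.07, called, without replicate 1. The exons of PSMB8 share 20.6% of their bases with genes on the opposite strand, PSMB8-AS1 and PSMB9, and the strand setting of the counting is not given in the sources used here.

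PSMB9, which replaces PSMB6 and lies beside PSMB8 and the antigen transporter genes on chromosome 6 (chr6:32844136-32859585), was at 2.596, 3.31 and 2.69 FPKM in untreated WT, 2.88, 3.36 and 3.43 in H2O2-treated WT, 12.99, 6.94 and 7.07 in untreated ATG7 KO and 5.87, 5.03 and 4.62 in H2O2-treated ATG7 KO, from 139 to 658 reads a library. Every ATG7 KO library was above every WT library. PSMB9 was higher in ATG7 KO in untreated cells by 1.64 ± 0.27 (edgeR adjusted p = 0.00677), or by 1.29 ± 0.12 without replicate 1, and with H2O2 by 0.68 ± 0.11 (edgeR adjusted p = 5.24e-06). H2O2 did not change it beyond the threshold in WT (0.16 ± 0.13, edgeR adjusted p = 0.269), and in ATG7 KO it fell by 0.45 ± 0.10 without replicate 1, against -0.80 ± 0.26 (edgeR adjusted p = 0.04198) with it.

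PSMB10, which replaces PSMB7 (chr16:67934502-67937087), was at 1.33, 1.85 and 1.25 FPKM in untreated WT, 3.05, 2.91 and 2.698 in H2O2-treated WT, 4.06, 2.39 and 3.24 in untreated ATG7 KO and 1.54, 1.97 and 1.77 in H2O2-treated ATG7 KO. These are 41 to 124 reads a library, and 34.8% of its exon bases are shared with AC040162.1 on the same strand. H2O2-treated WT libraries were all above untreated WT libraries, and H2O2-treated ATG7 KO libraries were all below untreated ATG7 KO libraries. PSMB10 rose in WT by 0.96 ± 0.20 (edgeR adjusted p = 2.79e-05), the largest log2 fold change of a member in that comparison. In ATG7 KO the change with H2O2 was -0.87 ± 0.23 (edgeR adjusted p = 0.0192), not called, and -0.69 ± 0.21 without replicate 1, called. The difference between the responses was -1.83 ± 0.30 (edgeR adjusted p = 0.00104), and -1.64 ± 0.29 without replicate 1. With H2O2 PSMB10 was lower in ATG7 KO than in WT (-0.72 ± 0.18, edgeR adjusted p = 6.82e-04), whereas in untreated cells the difference was 1.12 ± 0.26 (edgeR adjusted p = 0.0244), and 0.93 ± 0.22 and called without replicate 1.

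**Figure D3:**
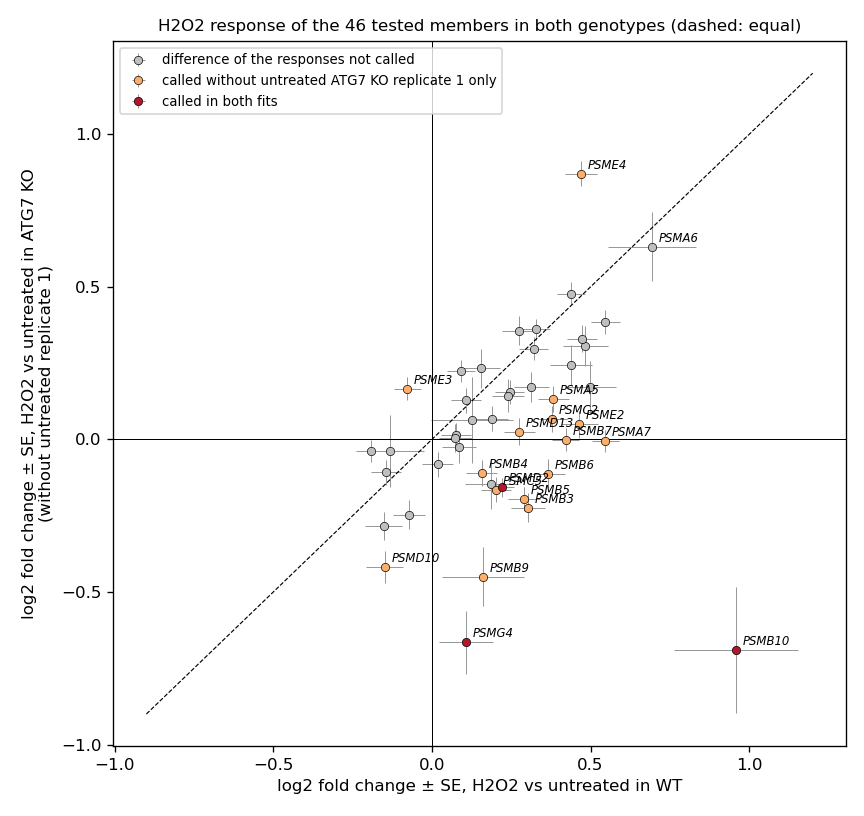
H2O2 response in WT (x axis, log2 fold change ± SE) and in ATG7 KO without untreated replicate 1 (y axis) of the 46 tested members, with the dashed line where both are equal. PSMB10 lies far below the line, up by 0.96 in WT and down by 0.69 in ATG7 KO, PSMG4 and PSMD2 are the other members whose responses differed in both fits (dark red), and PSME4 and PSME3 are the called members above the line.

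The ratio of each inducible subunit to the constitutive subunit that it replaces was computed within each library, where total depth cancels. A trend with gene length need not cancel, as PSMB9 has 3072 exon bases and PSMB6 1448. Ratios with the length correction were not computed. The exon bases that PSMB8 and PSMB10 share with other genes also make the size of their ratios uncertain. PSMB8/PSMB5 was 0.1897, 0.187 and 0.165 in untreated WT, 0.204, 0.212 and 0.202 in H2O2-treated WT, 0.164, 0.149 and 0.124 in untreated ATG7 KO and 0.1897, 0.188 and 0.202 in H2O2-treated ATG7 KO. It was lowest in untreated ATG7 KO, and the mean log2 ratio differed between untreated ATG7 KO and WT by -0.32, or by -0.41 without replicate 1. PSMB9/PSMB6 was 0.0471, 0.0535 and 0.0447 in untreated WT, 0.0379, 0.0442 and 0.0443 in H2O2-treated WT, 0.1003, 0.106 and 0.1096 in untreated ATG7 KO and 0.0997, 0.0811 and 0.0756 in H2O2-treated ATG7 KO. All 6 ATG7 KO libraries were above all 6 WT libraries, by 1.12 untreated and 1.01 with H2O2 on the log2 scale, and by 1.16 untreated without replicate 1. PSMB10/PSMB7 was 0.00981, 0.0141 and 0.00908 in untreated WT, 0.0165, 0.0164 and 0.0149 in H2O2-treated WT, 0.0205, 0.0206 and 0.0272 in untreated ATG7 KO and 0.0128, 0.0169 and 0.0149 in H2O2-treated ATG7 KO. This ratio was higher with H2O2 in WT by 0.56 and lower with H2O2 in ATG7 KO (a log2 difference of -0.61, or -0.68 without replicate 1), so that the genotypes overlapped with H2O2 (-0.11, two-sided exact permutation p = 0.7, adjusted p = 0.7). In the other 11 of the 12 comparisons of these 3 ratios the groups did not overlap, which gives the smallest two-sided exact permutation p possible, 0.1 (adjusted p = 0.109).

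**Figure D4:**
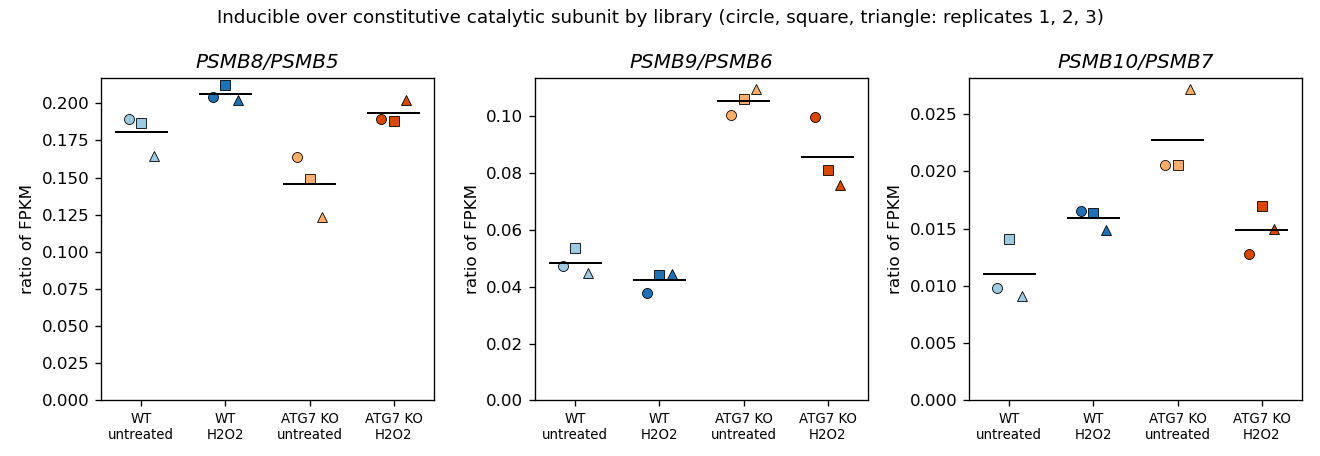
Ratio of the FPKM of an inducible to its constitutive catalytic subunit (y axis, from 0) in each library by group (x axis), with the group mean as a line. PSMB9/PSMB6 lies at 0.0379 to 0.0535 in WT and at 0.0756 to 0.1096 in ATG7 KO, and PSMB10/PSMB7 moves in opposite directions with H2O2 in the 2 genotypes; replicate 1 (circles) lies close to the other untreated ATG7 KO libraries here.

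Among the members that differed between the genotypes or responses, the bases before the starts of PSMB5, PSMB9, PSMB10, PSME1 and PSME2 are shown. These bases are where transcription factors of the oxidative and interferon responses can bind. The sequences are the 250 bases before the first listed RefSeq start (GRCh38.p14), 5′ to 3′ on the strand of the gene, and such starts can lie away from the gene bounds in the count table. Capitals mark matches on either strand to TGACNNNGC, the core of the antioxidant response element bound by NRF factors, to GAAA followed after any 2 bases by GAAA, a core of the interferon-stimulated response element (ISRE), and to CCAAT.
PSMB5 (chr14:23035221-23035470, minus strand): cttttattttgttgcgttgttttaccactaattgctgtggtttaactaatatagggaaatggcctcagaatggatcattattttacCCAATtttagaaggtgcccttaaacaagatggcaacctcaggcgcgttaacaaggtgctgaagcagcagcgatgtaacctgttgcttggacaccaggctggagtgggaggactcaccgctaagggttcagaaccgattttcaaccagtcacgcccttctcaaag
PSMB9 (chr6:32853942-32854191, plus strand): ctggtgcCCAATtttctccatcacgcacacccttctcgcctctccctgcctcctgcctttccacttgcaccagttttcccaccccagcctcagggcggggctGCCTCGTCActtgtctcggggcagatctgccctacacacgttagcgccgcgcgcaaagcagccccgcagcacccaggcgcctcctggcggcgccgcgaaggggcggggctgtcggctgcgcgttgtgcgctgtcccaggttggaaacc
PSMB10 (chr16:67936851-67937100, minus strand): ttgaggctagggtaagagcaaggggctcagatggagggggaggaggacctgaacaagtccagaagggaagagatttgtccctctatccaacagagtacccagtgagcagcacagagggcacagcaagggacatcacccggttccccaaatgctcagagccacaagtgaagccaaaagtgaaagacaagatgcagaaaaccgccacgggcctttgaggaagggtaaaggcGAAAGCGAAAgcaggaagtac
PSME1 (chr14:24135944-24136193, plus strand): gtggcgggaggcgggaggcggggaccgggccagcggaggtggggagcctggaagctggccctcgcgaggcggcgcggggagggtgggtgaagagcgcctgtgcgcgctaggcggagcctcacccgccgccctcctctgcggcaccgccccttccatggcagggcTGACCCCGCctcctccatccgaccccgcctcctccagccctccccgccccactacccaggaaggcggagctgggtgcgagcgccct
PSME2 (chr14:24146611-24146860, minus strand): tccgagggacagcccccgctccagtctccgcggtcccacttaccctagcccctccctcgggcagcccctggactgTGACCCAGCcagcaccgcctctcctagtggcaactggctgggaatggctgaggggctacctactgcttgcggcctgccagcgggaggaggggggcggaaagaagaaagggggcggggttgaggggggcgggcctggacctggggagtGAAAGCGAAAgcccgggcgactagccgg
No match in these 5 sequences overlapped another. All 5 hold a match, but other members called between the genotypes with H2O2 do not. PSMB8, PSMA6, PSMC6 and PSMD2 had an entry and no match to any of the letters searched. PSMB10 and PSME2 both hold GAAAGCGAAA shortly before their starts, 21 to 12 and 28 to 19 bases upstream. PSMB9, PSME1 and PSME2 hold a match to TGACNNNGC, and PSMB5 and PSMB9 hold CCAAT. Of the 48 members, 42 had an entry. TGACNNNGC was found in 11 of them (26.2%) and in 11% of the 27305 genes with such an entry, CCAAT in 18 (42.9%, against 33.0%), the ISRE core in 5 (11.9%, against 3.07%; PSMA4, PSMB4, PSMB10, PSME2 and PSMG4), and GGGA followed after any base by TTTCC, a core of the NF-κB site, in 0 (against 0.546%). The members are all protein-coding, while the 27305 entries were not limited to protein-coding genes, so the 2 percentages cover unlike sets of genes. These matches are a description of the letters and no evidence of binding. The 6 members without an entry were PSMA7, PSMB1, PSMB6, PSMB7, PSMD4 and PSMG3.

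In the 19S cap, the ATPase ring that unfolds substrates rose with H2O2 in WT for 5 of 6 members, all but PSMC3 (0.08 ± 0.05, edgeR adjusted p = 0.156), with a median of 0.29 (range 0.08 to 0.55). PSMC4 was at 57.2, 56.96 and 54.7 FPKM in untreated WT, 84.2, 80.2 and 82.9 in H2O2-treated WT, 78.3, 59.9 and 56.6 in untreated ATG7 KO and 76.98, 78.5 and 74.7 in H2O2-treated ATG7 KO. H2O2-treated WT libraries were above all untreated libraries of either genotype, and so were the H2O2-treated ATG7 KO libraries except that replicate 1 of untreated ATG7 KO reached their level. PSMC4 rose in WT by 0.55 ± 0.05 (edgeR adjusted p = 1.13e-14), and in ATG7 KO by 0.39 ± 0.04 without replicate 1 (0.24 ± 0.13, edgeR adjusted p = 0.185 with it, not called). PSMC6 was at 11.5, 10.8 and 11.6 FPKM in untreated WT, 12.8, 12.6 and 13.3 in H2O2-treated WT, 31.8, 17.9 and 18.5 in untreated ATG7 KO and 19.98, 19.2 and 18.5 in H2O2-treated ATG7 KO. Every ATG7 KO library was above every WT library. With H2O2 the difference was 0.57 ± 0.04 (edgeR adjusted p = 7.17e-13), and untreated it was 0.70 ± 0.05 without replicate 1, called, against 1.01 ± 0.22 (edgeR adjusted p = 0.0201) with it, not called. PSMC2 was the ATPase lower in ATG7 KO with H2O2 (-0.25 ± 0.04, edgeR adjusted p = 2.72e-06). The exons of PSMC1 share 75.8% of their bases with NRDE2 on the opposite strand, so its value is uncertain.

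Of the 11 non-ATPase subunits, which bind ubiquitin and form the lid, 7 rose and 2 fell with H2O2 in WT. The largest rises were PSMD14 (0.47 ± 0.05, edgeR adjusted p = 2.02e-12), the deubiquitinase of the lid, and PSMD12 (0.44 ± 0.04, edgeR adjusted p = 3.19e-12). PSMD1 was at 41.9, 39.1 and 42.1 FPKM in untreated WT, 36.1, 35.4 and 36.6 in H2O2-treated WT, 47.9, 42.4 and 41.96 in untreated ATG7 KO and 40.9, 41.6 and 41.8 in H2O2-treated ATG7 KO. H2O2-treated WT was below the other groups without overlap, and PSMD1 fell in WT (-0.19 ± 0.04, edgeR adjusted p = 1.91e-04). PSMD11 was at 22.1, 22.6 and 21.8 FPKM in untreated WT, 19.1, 20.8 and 20.6 in H2O2-treated WT, 22.7, 22.7 and 22.4 in untreated ATG7 KO and 21.5, 21.4 and 20.4 in H2O2-treated ATG7 KO. The treated WT libraries were below the untreated ones, with a change of -0.14 ± 0.05 (edgeR adjusted p = 0.00614) that was not called after the correction for gene length (0.00 ± 0.05).

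PSMD2, a scaffold of the 19S base that binds ubiquitin receptors, was the most abundant member by its mean over the 12 libraries, at 214, 211 and 223 FPKM in untreated WT, 256, 258 and 243 in H2O2-treated WT, 217, 191 and 189.9 in untreated ATG7 KO and 172, 175 and 169 in H2O2-treated ATG7 KO. H2O2-treated WT was the highest group and H2O2-treated ATG7 KO the lowest, with no overlap between them and any other group. PSMD2 rose with H2O2 in WT by 0.22 ± 0.04 (edgeR adjusted p = 2.82e-06), and in ATG7 KO it changed by -0.22 ± 0.10 (edgeR adjusted p = 0.124), or -0.16 ± 0.03 and called without replicate 1. The responses differed by -0.43 ± 0.10 (edgeR adjusted p = 0.00893), and by -0.36 ± 0.05 without replicate 1. The call was lost without any 1 library of the other groups (log2 differences of -0.46 to -0.36 over all libraries left out). With H2O2 PSMD2 was lower in ATG7 KO than in WT (-0.56 ± 0.03, edgeR adjusted p = 3.37e-16). PSMD13 and PSMD14 were lower there as well (-0.19 and -0.25, both called) and PSMD1 was higher (0.19 ± 0.04, edgeR adjusted p = 3.73e-05), while the other 7 did not pass.

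The assembly chaperones, which guide subunits into place and leave the finished particle, held the lowest values of ATG7 KO against WT with H2O2. PSMG4, a partner of PSMG3 in building the alpha ring, was at 2.02, 2.37 and 2.08 FPKM in untreated WT, 2.33, 2.4 and 2.28 in H2O2-treated WT, 2.74, 1.896 and 1.996 in untreated ATG7 KO and 1.19, 1.33 and 1.195 in H2O2-treated ATG7 KO (212 to 470 reads a library). The 3 H2O2-treated ATG7 KO libraries were below all the others. PSMG4 was lower there than in H2O2-treated WT (-0.92 ± 0.09, edgeR adjusted p = 2.0e-10). It fell with H2O2 in ATG7 KO (-0.84 ± 0.16, edgeR adjusted p = 0.00549, or -0.67 ± 0.10 without replicate 1), while in WT the change was 0.11 ± 0.09 (edgeR adjusted p = 0.265). With the length correction the rise in WT was called (0.36 ± 0.09) and the fall in ATG7 KO was not (-0.98 ± 0.24). The responses differed by -0.95 ± 0.18 (edgeR adjusted p = 0.00275), and by -0.76 ± 0.13 without replicate 1, a call lost without untreated WT replicate 1 or H2O2-treated ATG7 KO replicate 1 (differences of -1.04 to -0.76 over all libraries left out). Its fall in ATG7 KO was not called without any 1 of the H2O2-treated ATG7 KO libraries or without untreated replicate 3. Its exons share 14.99% of their bases with SLC22A23 and TUBB2B on the opposite strand.

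PSMG3 was at 12.1, 11.3 and 12.9 FPKM in untreated WT, 15.6, 17.3 and 18.5 in H2O2-treated WT, 23.7, 11.2 and 12.9 in untreated ATG7 KO and 12.9, 14.7 and 13.5 in H2O2-treated ATG7 KO. H2O2-treated WT was above the other groups, replicate 1 of untreated ATG7 KO excepted. PSMG3 rose with H2O2 in WT by 0.50 ± 0.08 (edgeR adjusted p = 3.26e-07), and was lower in ATG7 KO than in WT with H2O2 (-0.33 ± 0.08, edgeR adjusted p = 3.01e-04), a call lost after the correction for gene length (-0.16 ± 0.08). PSMG1 and PSMG2, the other pair of alpha-ring chaperones, had log2 fold changes of -0.09 and 0.20 in that comparison, and PSMG2 was called. Of the 19S base chaperones, PSMD5 was at 26.6, 22.8 and 25.03 FPKM in untreated WT, 29.99, 30.1 and 28.01 in H2O2-treated WT, 13.5, 14.8 and 14.3 in untreated ATG7 KO and 16.3, 16.3 and 16.04 in H2O2-treated ATG7 KO. Every ATG7 KO library was below every WT library, whether or not replicate 1 is counted. PSMD5 was lower in ATG7 KO both untreated (-0.80 ± 0.10, edgeR adjusted p = 0.00203, or -0.76 ± 0.06 without replicate 1) and with H2O2 (-0.86 ± 0.05, edgeR adjusted p = 7.21e-17), and it rose with H2O2 in WT (0.24 ± 0.05, edgeR adjusted p = 6.62e-05). PSMD10, also known as gankyrin, fell with H2O2 in ATG7 KO without replicate 1 (-0.42 ± 0.05) and was not called with it (-0.70 ± 0.20, edgeR adjusted p = 0.0291). In WT it did not pass (-0.15 ± 0.06, edgeR adjusted p = 0.0217), but was called lower with the length correction (-0.29 ± 0.06).

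The activators, which open the gate of the core in place of the 19S cap, differed between the genotypes in all 4 genes with H2O2. PSME1 was at 34.9, 34.8 and 39.8 FPKM in untreated WT, 33.3, 32.5 and 33.1 in H2O2-treated WT, 115, 61.9 and 63.5 in untreated ATG7 KO and 50.7, 53.1 and 52.2 in H2O2-treated ATG7 KO. PSME2, the other subunit of PA28, was at 13.1, 13.5 and 13.8 FPKM in untreated WT, 17.9, 19.1 and 18.9 in H2O2-treated WT, 50.3, 28.6 and 29.2 in untreated ATG7 KO and 29.5, 30.4 and 30.5 in H2O2-treated ATG7 KO. For both, every ATG7 KO library was above every WT library. With H2O2 PSME1 was higher in ATG7 KO by 0.65 ± 0.05 (edgeR adjusted p = 3.44e-13), and PSME2 by 0.69 ± 0.05 (edgeR adjusted p = 4.32e-14). In untreated cells PSME2 was higher by 1.42 ± 0.22 (edgeR adjusted p = 0.00569) (1.11 ± 0.06 without replicate 1), and PSME1 by 1.13 ± 0.24 (edgeR adjusted p = 0.0182), called only without replicate 1 (0.79 ± 0.05). With H2O2 in WT PSME2 rose (0.46 ± 0.06, edgeR adjusted p = 1.26e-09) and PSME1 did not pass (-0.15 ± 0.06, edgeR adjusted p = 0.0204), but was called lower with the length correction (-0.34 ± 0.06). In ATG7 KO PSME1 fell without replicate 1 (-0.28 ± 0.05) and was not called with it (-0.62 ± 0.23, edgeR adjusted p = 0.0682). PSME2 was called in neither (0.05 ± 0.05 and -0.26 ± 0.22, edgeR adjusted p = 0.366).

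PSME3, the nuclear activator PA28 gamma, was at 54.1, 53.7 and 56.4 FPKM in untreated WT, 50.2, 52.5 and 53.5 in H2O2-treated WT, 36.6, 36.3 and 36.04 in untreated ATG7 KO and 39.4, 41.5 and 41.9 in H2O2-treated ATG7 KO. Every ATG7 KO library, replicate 1 included, was below every WT library. The untreated difference was -0.59 ± 0.09 (edgeR adjusted p = 0.00418), or -0.59 ± 0.05 without replicate 1, and that with H2O2 was -0.35 ± 0.04 (edgeR adjusted p = 1.36e-09). PSME4, which encodes the activator PA200, was at 12.3, 10.7 and 11.96 FPKM in untreated WT, 15.4, 16.2 and 16.99 in H2O2-treated WT, 9.37, 10.99 and 12.01 in untreated ATG7 KO and 21.7, 21.6 and 20.4 in H2O2-treated ATG7 KO. H2O2-treated libraries were above untreated ones in both genotypes, and the highest were those of ATG7 KO. In WT PSME4 rose with H2O2 by 0.47 ± 0.05 (edgeR adjusted p = 2.84e-11), and in ATG7 KO by 0.97 ± 0.12 (edgeR adjusted p = 7.99e-04), or by 0.87 ± 0.04 without replicate 1. The response was larger in ATG7 KO by 0.41 ± 0.07 without replicate 1, called, and by 0.50 ± 0.13 (edgeR adjusted p = 0.0142) with all 12 libraries, not called. After the correction for gene length the difference was 0.17 ± 0.10 with all 12 libraries, not called. In untreated cells PSME4 did not differ beyond the threshold (-0.11 ± 0.12, edgeR adjusted p = 0.562, or -0.01 ± 0.05 without replicate 1). The inhibitor PSMF1, which blocks the activators, was at 17.1 to 20.9 FPKM in all 12 libraries and was called in none of the 4 comparisons of groups.

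Members that differed between the genotypes often lay among genes that differed the same way. The median log2 fold change of the 20 tested genes on either side was computed for each member in ATG7 KO against WT with H2O2, as a description. Where the median of the 10 genes on either side differed from it by over 1.5 times, that is given too. On chromosome 14, PSMB5 (chr14:23016543-23035230), PSME1 (chr14:24136158-24138967) and PSME2 (chr14:24143362-24147570), PSMA6 (chr14:35278633-35317493) and PSMC6 (chr14:52707172-52728587) lay among neighbours with medians of 0.57, 0.60, 0.60, 0.58 and 0.58 (for PSME2 0.38 with 10 genes). For PSMB5 33 of 40 neighbours were above 0, and for PSME2 33 of 39. The members themselves were at 0.50, 0.65, 0.69, 0.80 and 0.57. PSMA3 and PSMC1, elsewhere on chromosome 14, had neighbours at 0.02 and 0.19 (for PSMA3 0.28 with 10 genes) and were at 0.14 and -0.11. Over the whole of chromosome 14 the median of 494 other genes was 0.28.

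On chromosome 9, PSMB7 (chr9:124353466-124415444) and PSMD5 (chr9:120815496-120842984) had neighbours at -0.34 and -0.19 (for PSMD5 -0.016 with 10 genes, 10 of 20 above 0) and were themselves at -0.62 and -0.86. PSMD2 on chromosome 3 (chr3:184298709-184309054) was at -0.56 beside -0.38, and PSME3 on chromosome 17 (chr17:42824385-42843758) was at -0.35 beside -0.31. The neighbours of PSMG4 on chromosome 6 (chr6:3231403-3303373) had a median of -0.29, less far from 0 than PSMG4 itself (-0.92). By contrast, PSMB9 (0.68) and PSMB8 (0.41) lay among neighbours at 0.14 (0.25 and 0.27 with 10 genes), and PSMB10 (-0.72) among neighbours at -0.05 (-0.074 with 10 genes). Other called members had neighbours of the opposite sign. PSMD14 (-0.25), PSMB4 (-0.26), PSMC2 (-0.25) and PSMA7 (-0.22) lay among neighbours at 0.34, 0.26, 0.10 and 0.08 (for PSMB4 0.11 and PSMC2 0.21 with 10 genes). In untreated cells, with replicate 1 included, the chromosome 14 neighbours of PSMB5, PSME1, PSME2 and PSMA6 had medians of 0.77, 0.84, 0.84 and 0.79. Those of PSMC6 were lower, at 0.27. The members, in the same order with PSMC6 last, were at 1.33, 1.13, 1.42, 0.97 and 1.01. PSMB7 on chromosome 9 was then at 0.10 beside neighbours at -0.48, of the opposite sign. PSMD5 was at -0.80 beside -0.38, PSMD2 at -0.12 beside -0.42 and PSME3 at -0.59 beside -0.32. The part of the chromosomal position in these differences was not tested.

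**Figure D5:**
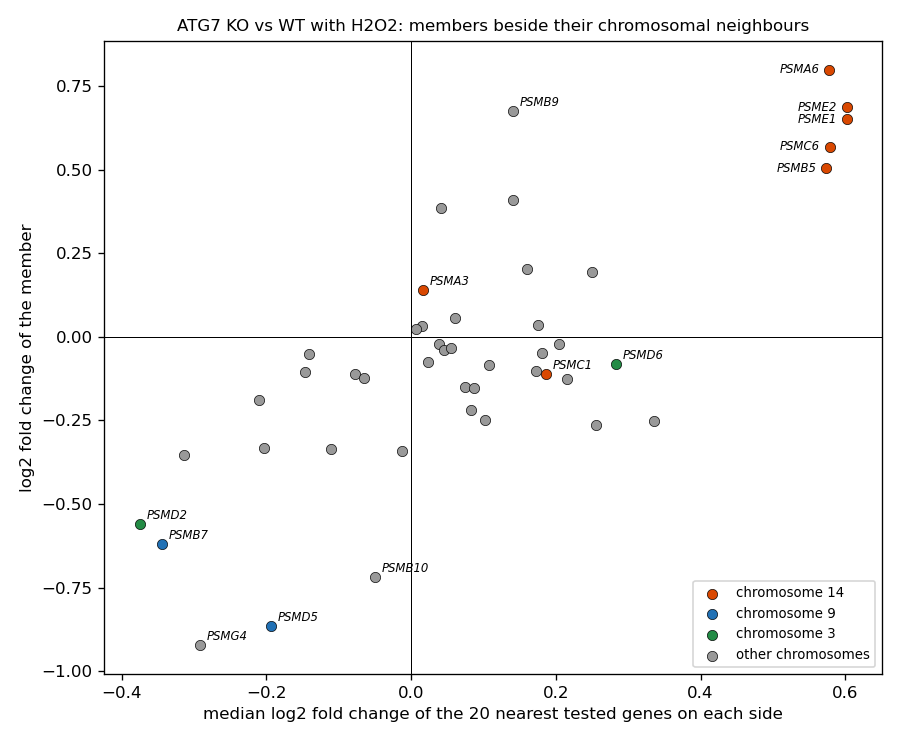
Log2 fold change of each tested member in ATG7 KO against WT with H2O2 (y axis) beside the median log2 fold change of the 20 nearest tested genes on each side (x axis), coloured by chromosome. PSMA6, PSMB5, PSMC6, PSME1 and PSME2 on chromosome 14 lie together at the upper right with neighbours at 0.57 to 0.60, PSMD2, PSMB7 and PSMD5 at the lower left, and PSMB9 and PSMB10 away from 0 with neighbours at 0.14 and -0.05.

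A list of 33 other genes of the pathway was written down with the members, of which 32 were tested: partners in assembly, bound enzymes, shuttle receptors that carry ubiquitinated substrates, transcription factors of proteasome genes, ubiquitin genes, and regulators and partners of the immunoproteasome. With H2O2 in WT 16 rose and 13 fell, where 61.0% of all genes were called. The largest rises were IRF1, an interferon-response factor that drives immunoproteasome genes, at 2.16 ± 0.07 (edgeR adjusted p = 5.58e-31), TAP1, a subunit of the antigen peptide transporter, at 1.495 ± 0.05 (edgeR adjusted p = 1.37e-29), and ADRM1, the ubiquitin receptor of the 19S base, at 1.21 ± 0.05 (edgeR adjusted p = 1.88e-25). NLRC5, a further regulator of immune genes, fell (-0.81 ± 0.11, edgeR adjusted p = 1.93e-08), and so did SEL1L (-0.66 ± 0.06, edgeR adjusted p = 9.26e-15), a partner of a ubiquitin ligase of the endoplasmic reticulum. With H2O2 in ATG7 KO 4 rose and 3 fell, and without replicate 1, 13 rose and 13 fell, where 26.0% and 58.4% of all genes were called. TAP1 rose there too (1.34 ± 0.11, edgeR adjusted p = 1.85e-04, or 1.25 ± 0.04 without replicate 1), and PAAF1, which binds the 19S ATPases, fell (-1.28 ± 0.16, edgeR adjusted p = 8.44e-04, or -1.15 ± 0.12).

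IRF1 was at 2.79 ± 0.00801 FPKM in untreated WT, 12.5 ± 1.19 in H2O2-treated WT, 3.74 ± 0.248 in untreated ATG7 KO and 6.72 ± 0.354 in H2O2-treated ATG7 KO (mean ± SD). Its response was lower in ATG7 KO than in WT (-1.31 ± 0.12, edgeR adjusted p = 2.99e-05, or -1.28 ± 0.10 without replicate 1). UBB, a polyubiquitin gene, and NFE2L2, which encodes NRF2, also had lower responses (-1.03 ± 0.23, edgeR adjusted p = 0.00625, and -0.53 ± 0.12, edgeR adjusted p = 0.00667). Without replicate 1 they were at -0.71 ± 0.06 and -0.43 ± 0.08. That of the shuttle receptor UBQLN1 was higher (0.54 ± 0.09, edgeR adjusted p = 0.00108, or 0.56 ± 0.06). Without replicate 1 the responses of 11 of the 32 were called lower and 8 higher in ATG7 KO, where 34.1% of all genes were called. With H2O2, 10 of the 32 were higher and 12 lower in ATG7 KO than in WT, led by TAP2, the partner of TAP1 (0.73 ± 0.06, edgeR adjusted p = 4.39e-13), and by IRF1 (-0.90 ± 0.06, edgeR adjusted p = 1.02e-13), where 55.6% of all genes were called. In untreated cells 0 were higher and 2 lower, among them UBQLN1 (-0.60 ± 0.09, edgeR adjusted p = 0.00471, or -0.60 ± 0.04 without replicate 1), and without replicate 1, 10 were higher and 6 lower, where 7.7% and 36.2% of all genes were called.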

How the data were processed

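Total RNA of the 12 libraries was sequenced, and per the submitters' processing notes reads were aligned with HISAT2 2.0.5 and counted with featureCounts 1.5.0-p3. The deposited table of raw read counts per gene (GRCh38) was used for the tests, and the FPKM values that the authors computed from the same counts and gene lengths were used for levels. How strand and reads on several genes were treated is not given in the sources used here. All 12 value columns were matched to samples by title. Library totals of 15602183 to 17659496 counts limit the precision of members with few reads.

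Counts were tested with edgeR 4.0.16 (R 4.3.3; TMM scaling, filterByExpr with a minimum count of 10, robust quasi-likelihood test, Benjamini-Hochberg adjustment over all genes tested). A comparison of 2 groups was fitted on those 6 libraries alone and the interaction on all 12, and an adjusted p under 0.01 was a call. The code was tested on simulated counts. The correction for gene length subtracted, in each library, a smooth curve (lowess, span 0.3) of the deviation against exon length. Sums and ratios were compared by two-sided exact permutation tests (SciPy 1.17.1). Alternatives were DESeq2 1.42.0, limma 3.58.1 on log2(FPKM + 1) and log2(FPKM + 0.1), RLE scaling, other count filters, a replicate block, all libraries in a fit, the length correction, and leaving out each library. The p-values measure the spread between replicates, whose separate cultures the labels do not describe.

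Members and gene lists were chosen with earlier results of these data known. Named were PSMB5 to PSMB10 and PSME1 to PSME4, and per comparison up to 5 called members with the highest and 5 with the lowest log2 fold change. Other members were named where a role was described, and of the other pathway genes up to 3 in each direction. Some genes that this rule names are not reported here. Sequences are RefSeq's (GRCh38.p14), and 42 of 48 members matched by symbol. The authors' tables of fold changes and p-values were not used.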

Additional observations from a re-analysis of the deposited data

Results flagged for a closer look

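The response to H2O2 differed between the genotypes for 3 members by the interaction test over all 12 libraries with edgeR (adjusted p under 0.01). For PSMB10 the response in ATG7 KO minus that in WT was -1.83 on the log2 scale, for PSMG4 -0.95 and for PSMD2 -0.43. All 3 were also called without untreated ATG7 KO replicate 1, at -1.64, -0.76 and -0.36. The call of PSMB10 held whichever library was left out, that of PSMG4 was lost without untreated WT replicate 1 or H2O2-treated ATG7 KO replicate 1, and that of PSMD2 without any 1 library of untreated WT, H2O2-treated WT or H2O2-treated ATG7 KO. PSMB10 had 41 to 124 reads a library, and 34.8% of its exon bases are shared with another gene on the same strand. With 3 libraries a group, single libraries were not tested as outliers.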

How the results depend on the processing

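The counts of members called in ATG7 KO against WT with H2O2 and the 28 rises in WT held within 1.5 times under all alternatives except a fit of all 12 libraries, which called 3 higher and 5 lower in ATG7 KO and 7 rises and 0 falls in WT. Over all genes that fit called 2355 higher and 2521 lower in ATG7 KO, against 4414 and 4433 in the main fit. In WT it called 3497 rises and 3332 falls, against 4915 and 4797. For the 2 falls in WT, DESeq2, RLE scaling, a minimum of 10 counts in every library and limma with either pseudocount each gave 1, and no filter, the length correction and an adjusted p under 0.05 each gave 4. Of all genes 4797 fell in the main fit, and 4287, 4683, 4382, 4277 and 4237 in the first 5 of these. With no filter 5060 fell, and with the length correction 4404. In untreated cells the 4 members higher in ATG7 KO were 8 with DESeq2, 7 with no filter, 1 and 2 with limma on log2(FPKM + 1) and log2(FPKM + 0.1), 8 with all 12 libraries in the fit and 7 at an adjusted p under 0.05. Over all genes 679 were higher in the main fit, and 1349, 906 (of 30616 tested), 592, 610 and 1665 in these fits. Counts over all genes at an adjusted p under 0.05 are not given here. For H2O2 in ATG7 KO, DESeq2 gave 3 rises and 3 falls, the length correction 2 and 0, limma 0 falls with either pseudocount, the fit of all 12 libraries 3 and 4, and an adjusted p under 0.05 3 and 4. Over all genes the main fit gave 2107 rises and 1918 falls, DESeq2 2893 and 2635, and the length correction 2714 and 2331. Limma gave 1726 and 1729 falls with the 2 pseudocounts, and the fit of all 12 libraries 3308 rises and 3220 falls. The interaction gave 2 higher and 6 lower with DESeq2, 1 and 17 with no filter, and 1 and 12 at an adjusted p under 0.05. Over all genes it gave 1184 and 1182 in the main fit, 1791 and 1912 with DESeq2, and 2000 and 2054 (of 36648 tested) with no filter. The cause of these changes was not tested.

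The 2 alternatives chosen after seeing the data left out untreated ATG7 KO replicate 1. With the length correction, 13 members were higher and 4 lower in untreated ATG7 KO, 18 rose and 10 fell with H2O2 in ATG7 KO, and 2 responses were higher and 14 lower. Over all genes the counts were 3008 and 2724 of 15848, 4974 and 4393 of 16002, and 2579 and 2744 of 17543. With the other 11 libraries in the fit, 12 members were higher and 4 lower, and 15 rose and 10 fell, against 2724 and 2867, and 4565 and 4423, of all 17543 genes. Leaving out each library in turn gave 0 to 14 members higher and 0 to 4 lower in untreated ATG7 KO, 1 to 17 rises and 0 to 10 falls with H2O2 in ATG7 KO, 0 to 2 higher and 1 to 16 lower interactions, and 1 to 3 falls in WT. Over all genes these ranges were 180 to 2891 and 107 to 2843, 1045 to 4768 and 722 to 4573, 622 to 3122 and 710 to 2852, and 4420 to 4825. The upper ends for the comparisons of ATG7 KO came without untreated ATG7 KO replicate 1, for members and for all genes. With that library kept, 0 members passed in untreated ATG7 KO against WT without any 1 of the untreated WT libraries (13 at an unadjusted p under 0.05 with all libraries). Of all genes, 181, 180 and 180 were then called higher and 113, 107 and 108 lower. The interaction called 8 members lower without untreated ATG7 KO replicate 2 and 5 without replicate 3, where 1407 and 1420 of all genes were called lower. The fall of PSMD11 in WT was lost without untreated WT replicate 2 or H2O2-treated WT replicate 1 (-0.17 to -0.11 over all libraries left out).

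Replicate numbers do not mark a shared source in the labels, and the deviations of same-numbered libraries correlated at -0.07 to 0.10, so the numbers were not taken to pair the samples. With the replicate number as a block, 0 members were higher and 0 lower in untreated ATG7 KO, where 313 and 186 of all 15357 genes were. With H2O2 in ATG7 KO 0 members fell in that fit, where 1342 of all 15475 genes did.

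Directions turned as follows. In untreated ATG7 KO against WT, PSMB7 was -0.11 with the length correction, -0.22 with it and without replicate 1, and -0.20 in the fit of 11 libraries, and PSME4 was 0.048 with the length correction and 0.030 also without replicate 1. For H2O2 in ATG7 KO, with the length correction and without replicate 1, the members' median was 0.066, PSMB7 0.031, PSMB8 0.35 and PSME2 0.089, and the fit of 11 libraries gave a median of 0.035, PSMB8 0.30 and PSME2 0.047. The interaction of PSME1 was 0.12 with the length correction and without replicate 1. The PSMB10/PSMB7 difference with H2O2 was 0.11 on FPKM + 1, and with CPM in place of FPKM the summed activators and 20S assembly chaperones differed by 0.10 and -0.082 with H2O2 in ATG7 KO. Leaving out each library, log2 differences ranged across 0 for PSMB7 in untreated cells (-0.19 to 0.23) and, with H2O2 in ATG7 KO, for PSMB8 (-0.39 to 0.31), PSME2 (-0.40 to 0.049) and the members' median (-0.33 to 0.037). The summed FPKM with H2O2 in ATG7 KO did so for all members (-0.29 to 0.041), alpha subunits (-0.40 to 0.041), inducible subunits (-0.49 to 0.034), ATPases (-0.16 to 0.13), non-ATPase subunits (-0.10 to 0.074), activators (-0.26 to 0.051) and 20S chaperones (-0.16 to 0.27). In untreated cells it did so for non-ATPase subunits (-0.069 to 0.10), 19S chaperones (-0.19 to 0.084), the inhibitor (-0.079 to 0.017) and 20S chaperones (-0.015 to 0.42), and with H2O2 in WT for 19S chaperones (-0.0050 to 0.086).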
